A study of Mus musculus with 2 samples.

Results

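Collagen genes were taken as all genes whose symbol is Col, a number, a and a number, and whose probe sets, the sets of short probes read together as a single transcript, are assigned to that gene alone. There were 42 such genes with 82 probe sets, among 18194 genes with a named probe set. They were compared in pooled RNA from dissected air pouch membranes of female Balb/C mice aged 6 to 8 weeks. The pouch is a cavity raised on the back with 2 ml sterile air, and its lining serves as a model of synovium. On day 7, control pouches received 1 ml PBS and MSU pouches 2 mg monosodium urate (MSU) crystals in 1 ml PBS, and the membranes were removed 9 h later. RNA from 3 mice was pooled per condition and hybridized to 1 array per condition. The RNA was pooled because small remnants of fat and muscle could remain on a dissected membrane. There were therefore no replicates, no test between conditions or between classes of collagen was possible, and every value below describes these 2 pools.

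Collagens are trimers of chains that wind around each other, and each chain is the product of its own gene. Fibrillar collagens (types I, II, III, V, XI, XXIV and XXVII) pack into banded fibrils, type IV forms the sheet of basement membranes, and type VI forms beaded microfibrils around cells. Fibril-associated collagens (types IX, XII, XIV, XVI, XIX, XX and XXII) sit on the surface of fibrils or beside them, and transmembrane collagens (types XIII, XVII, XXIII and XXV) are anchored in the cell membrane. Fibroblasts make most of the fibrillar and microfibrillar collagen of loose connective tissue, whereas endothelial cells, muscle fibres, fat cells and Schwann cells also lay down basement membrane. Types VII, VIII, X, XV, XVIII and XXVI fall outside these classes and are treated together here as other collagens.

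Upstream sequences are given for 4 of these genes, because they span the results that follow. Col1a2 and Col3a1 had the highest control signals of the fibrillar genes, whereas Col8a1 and Col15a1 were among the lowest ratios. Each run holds the 250 bases before the start of transcription, 5′ to 3′ on the strand of the gene, from RefSeq on build GRCm38.p6. Capitals mark matches, on either strand, to any of 4 motifs. These were the CCAAT box, the TATA box written as TATAAA, the core of the GC box written as GGGCGG, and an AP-1 type sequence written as TGANTCA. No match to a motif overlapped one to another in the runs shown.
Col1a2, chr6:4505368-4505617, plus strand: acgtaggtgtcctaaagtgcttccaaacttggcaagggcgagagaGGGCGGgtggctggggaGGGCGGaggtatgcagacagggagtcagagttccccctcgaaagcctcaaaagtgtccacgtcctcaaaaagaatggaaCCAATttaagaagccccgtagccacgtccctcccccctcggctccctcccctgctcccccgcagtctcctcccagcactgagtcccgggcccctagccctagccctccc
Col3a1, chr1:45311288-45311537, plus strand: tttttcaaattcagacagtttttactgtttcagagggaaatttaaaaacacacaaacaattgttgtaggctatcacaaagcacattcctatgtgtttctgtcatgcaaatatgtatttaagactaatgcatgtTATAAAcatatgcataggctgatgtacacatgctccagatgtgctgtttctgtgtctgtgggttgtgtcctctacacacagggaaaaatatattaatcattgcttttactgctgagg
Col8a1, chr16:57754738-57754987, minus strand: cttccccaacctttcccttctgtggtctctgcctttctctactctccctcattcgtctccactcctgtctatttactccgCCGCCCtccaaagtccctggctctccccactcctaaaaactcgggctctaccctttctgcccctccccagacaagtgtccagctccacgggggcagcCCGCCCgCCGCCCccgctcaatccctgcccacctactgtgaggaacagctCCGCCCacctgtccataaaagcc
Col15a1, chr4:47207762-47208011, plus strand: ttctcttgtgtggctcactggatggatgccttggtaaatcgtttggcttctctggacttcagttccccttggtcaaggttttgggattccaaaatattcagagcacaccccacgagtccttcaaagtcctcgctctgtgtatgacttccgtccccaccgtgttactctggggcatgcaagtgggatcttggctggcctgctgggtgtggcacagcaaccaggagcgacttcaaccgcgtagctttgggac

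None of the 25 collagen genes that could be measured passed 2-fold in either direction between the pools. Detection floors were 64.6 for the control pool and 74.1 for the MSU pool, and folds are printed for genes above the floor in both pools. A gene above the floor in 1 pool alone has a bound, printed as "at least" and computed from the floor of the pool where it was dim, and either value makes a gene measured. The brightest probe set, by mean log2 signal, stands for the gene. Of the 42 genes, 25 were measured, 23 of them with a fold, and 17 were below the floor on both arrays and have no ratio. The 2 genes with a bound, Col8a2 and Col11a1, could not pass 2-fold downwards, since their control signals of 82.1 and 85.3 lay close to the MSU floor. Over all 11156 measured genes, 3.7% passed 2-fold upwards and 4.28% downwards, shares that would amount to about a single gene in each direction among 25. At 3-fold, which none of the 25 passed either, the shares over all measured genes were 1.47% and 0.717%.

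The log2 ratios of the 23 collagen genes with a fold ran from -0.85 (Col7a1) to 0.41 (Col24a1), with a median of -0.12. Over all 10046 genes with a fold the median was -0.05. Of the 23, 15 lay below 0, which is 65.2%, beside 55% of all genes with a fold, and 8 lay above 0, beside 45%. Scaling on the spike-ins (control RNAs added at hybridization), which lowers every log2 ratio by 0.46, turned all 8 of these below 0. For 20 of the 23 the log2 ratio lay within 0.5 of 0, as it did for 71.6% of all genes. The exceptions were Col7a1, Col15a1 and Col8a1, all lower in the MSU pool. In whole membranes, fewer cells of a type and less RNA per cell cannot be told apart. The same holds for dilution by RNA of immigrating inflammatory cells, which the published account names as a possible source of decreases. None of these was tested.

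**Figure D1:**
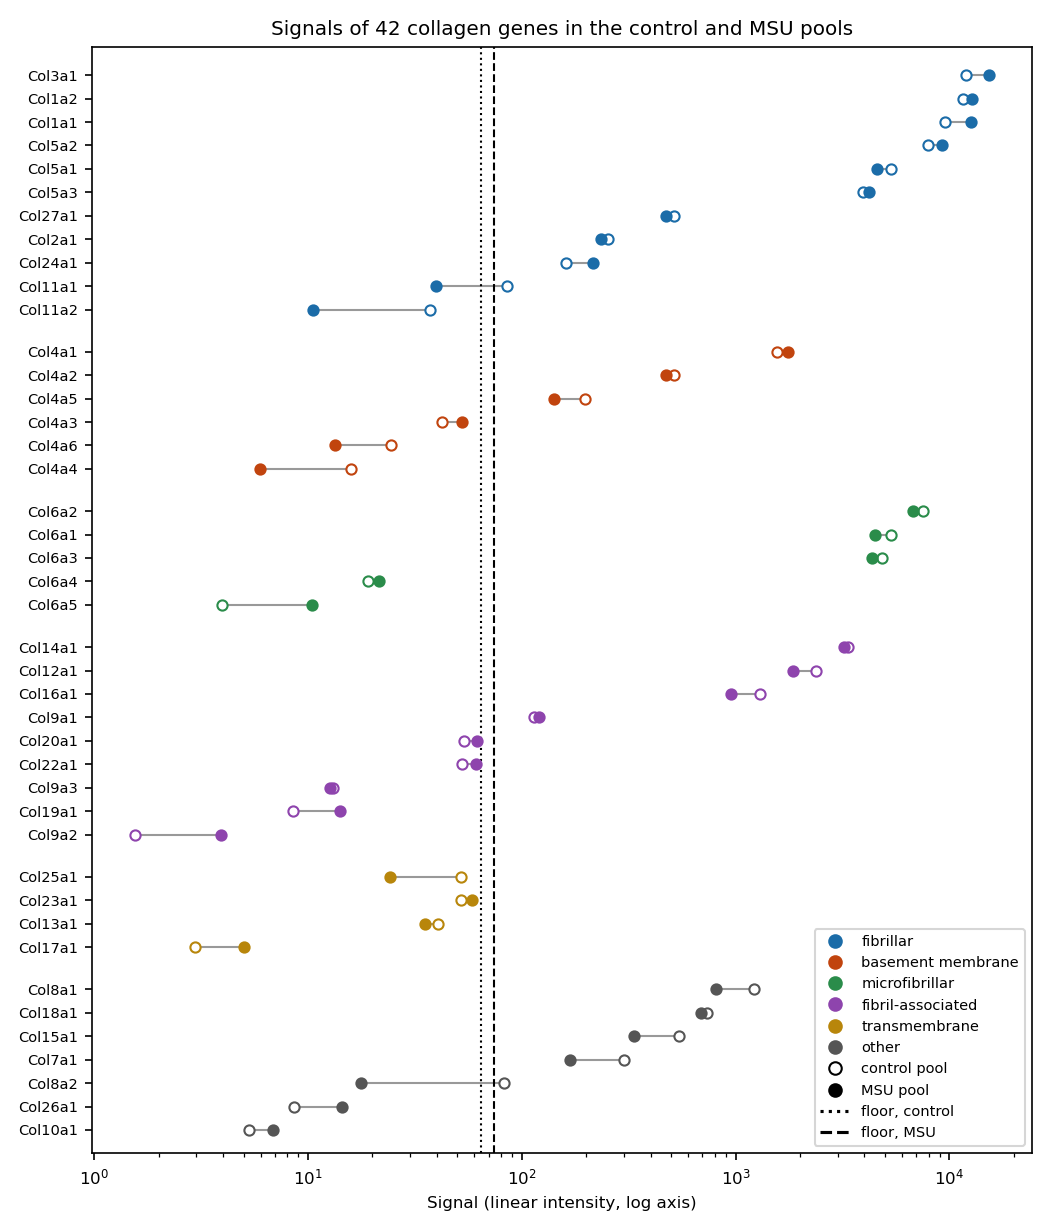
Signal of the brightest probe set of each of the 42 collagen genes (x axis, linear intensity on a log axis) in the control pool (open points) and the MSU pool (filled points), 1 array per pool, grouped by class. Vertical lines are the detection floors (64.6 and 74.1), and all 4 transmembrane collagens lie to the left of both.

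The highest collagen signals were those of the fibrillar genes of types I and III, whereas some other fibrillar genes were dim. Among the classes, the fibrillar alone had a median log2 ratio above 0, which scaling on the spike-ins turned below 0. Quantile normalization put that median at 0, the dimmest probe set of each gene gave 0.01, and the fibril-associated median was also above 0 without a floor or with the pseudocount. The chains of type I, the main collagen of skin, tendon and bone, and type III, its partner in extensible tissues, all had a log2 ratio above 0 as deposited and below 0 with scaling on the spike-ins. Col3a1 read 11909 (control) and 15371 (MSU), the order used throughout, or 1.29-fold higher. This was the highest signal of all 45101 probe sets on each array, although brightness differs between probe sets for reasons other than transcript level. Col1a1 read 9550 and 12669, a 1.33-fold higher signal with MSU. Col1a2, which encodes the other chain of type I, read 11593 and 12750, a 1.10-fold higher signal with MSU. The median log2 ratio of these 3 genes was 0.37. Quantile normalization gave 0.11 for Col1a1 and -0.13 for Col1a2. Quantile normalization sets Col3a1 to 0 by construction, because it is the brightest probe set on both arrays.

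Other probe sets of the type I and III genes gave smaller ratios. The dimmer Col1a1 probe set had signals of 2429 and 2398, a log2 ratio of -0.02 in place of 0.41. The dimmer Col3a1 probe set had signals of 7619 and 8134, a log2 ratio of 0.09 in place of 0.37. The second probe set of Col1a2 read 9859 and 9929, so the brighter of the probe sets had the higher ratio in each of these genes. A further Col1a2 probe set was the only collagen probe set at least 2-fold lower, among 18718 measured probe sets with 1 gene of which 3.6% were. It had signals of 183 and 61.4 and was at least 2.47-fold lower, against signals of 9859 or more on the other Col1a2 probe sets.

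Type V collagen, which nucleates fibrils and limits their width, divided among its chains. Col5a2 read 7965 and 9191, a 1.15-fold higher signal with MSU, whereas Col5a1 had signals of 5343 and 4608 and was 1.16-fold lower. Col5a3, a chain of restricted distribution, read 3924 and 4208, or 1.07-fold higher. All 3 probe sets of Col5a1 were lower in the MSU pool, with log2 ratios from -0.40 to -0.20. The probe sets of Col5a2 differed in direction, at 0.21 and -0.20. The log2 ratios of the type V chains thus spanned 0.42, within a range that the probe sets of a single gene also showed.

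The remaining fibrillar genes were dim. Col24a1, a minor fibrillar chain, read 161 and 214, a 1.33-fold higher signal with MSU. Col27a1, a fibrillar chain best known from cartilage, read 513 and 473, and its other probe set 299 and 324, log2 ratios of -0.12 and 0.11. Col2a1, the main collagen of cartilage, read 254 and 235, a log2 ratio of -0.11. Col11a1, its partner in cartilage fibrils, lay above the floor in the control pool alone, with signals of 85.3 and 39.6, and was at least 1.15-fold lower. Col11a2 lay below the floor in both pools. Of 7 chondrocyte markers, aggrecan (Acan), Matn1, Hapln1 and Cnmd were below both floors as well. Sox9 and Matn3 passed the control floor alone, at 74.7 and 66.6, and Comp, which tendon and synovium also express, read 77.5 and 145, or 1.88-fold higher. Over the 9 fibrillar genes with a fold the median log2 ratio was 0.14, with 6 above 0 and 3 below, and scaling on the spike-ins gave a median of -0.32.

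**Figure D2:**
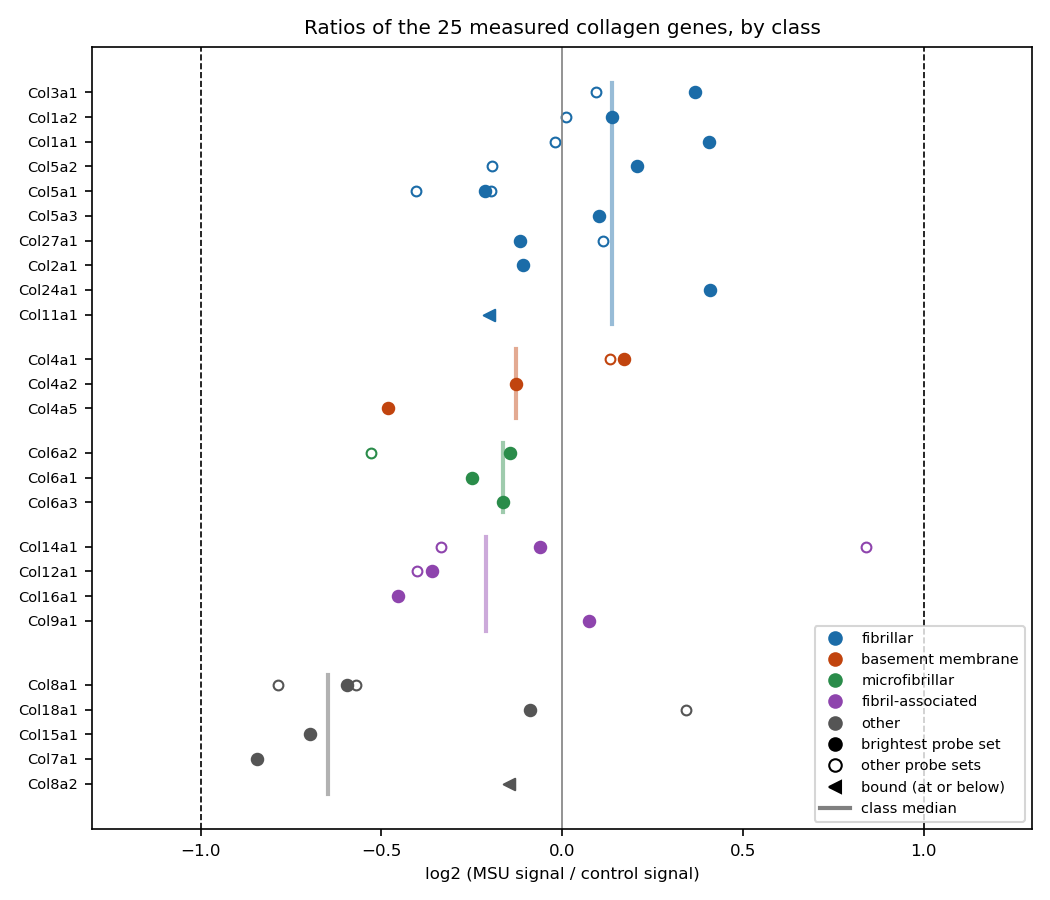
Log2 ratio of MSU to control signal (x axis) of the 25 measured collagen genes (y axis), grouped by class, 1 array per pool. Filled points are the brightest probe sets, open points further probe sets with a fold, triangles bounds, thick bars class medians and dashed lines 2-fold. No drawn point lies beyond 2-fold. Bounds of further probe sets are not drawn, among them a Col1a2 probe set at least 2.47-fold lower. The medians are 0.14 for fibrillar genes (-0.32 with scaling on the spike-ins) and -0.65 for the other collagens.

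Basement membrane collagen showed a ubiquitous pair of chains near equal signal in both pools and a further chain that was lower. Col4a1 read 1554 and 1749, a 1.13-fold higher signal with MSU, with a second probe set at 623 and 683 that gave a like log2 ratio (0.17 and 0.13). Col4a2, which joins Col4a1 in the same trimer, read 514 and 470 and was 1.09-fold lower. The annotated start sites of these genes lie on opposite strands, 21 bases apart. Scaling on the spike-ins turned Col4a1 below 0. Col4a5, a chain of more specialized basement membranes, had signals of 196 and 141, a 1.40-fold lower signal, and a second probe set of the gene gave at least 1.41-fold lower. Its neighbour Col4a6, whose start lies 1343 bases away on the opposite strand, was below the floor in both pools, as were Col4a3 and Col4a4, the chains found together in glomerular basement membrane. The median log2 ratio of the 3 measured genes was -0.13.

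The chains of microfibrillar collagen VI were all slightly lower in the MSU pool. Col6a1 had signals of 5332 and 4487 and was 1.19-fold lower, Col6a2 read 7492 and 6781 and was 1.10-fold lower, and Col6a3 read 4856 and 4336 and was 1.12-fold lower. These 3 chains form the common type VI trimer, and their log2 ratios lay within 0.10 of each other, the narrowest span of the types with several chains measured. The dimmer probe set of Col6a2, at 4061 and 2817, gave a log2 ratio of -0.53 in place of -0.14. Col6a4 and Col6a5, which can replace Col6a3 in the trimer, had no signal above 21.6 and so have no ratio. Col6a6 had no named probe set and was not analysed here.

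Fibril-associated collagens were measured for 4 of 9 genes, of which 3 were lower in the MSU pool. Col16a1, found on fibrils of skin and cartilage, had signals of 1304 and 952 and was 1.37-fold lower. Col12a1, a fibril-associated collagen of tendon, fascia and other loaded tissue, read 2381 and 1857 and was 1.28-fold lower, with a second probe set at 1330 and 1007. Col14a1, its close relative, read 3367 and 3230 and was 1.04-fold lower. The further probe sets of Col14a1 disagreed, at log2 ratios of -0.34 and 0.84, the latter from signals of 67.1 and 120 near the floor. Col9a1, a partner of cartilage fibrils, read 114 and 120. The median log2 ratio of these 4 was -0.21, whereas plain ratios of all 9 genes without a floor gave 0.07. Col9a2, Col9a3, Col19a1, Col20a1 and Col22a1 were below both floors.

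No transmembrane collagen was measured. Col13a1, a collagen of cell junctions and the neuromuscular synapse, read 40.7 and 35.1. Col17a1, the hemidesmosome collagen of basal keratinocytes, read 2.95 and 4.99. Col23a1 read 52.0 and 58.3, and Col25a1, a collagen of neurons and muscle, 52.1 and 24.1. All 4 lay below the floor on both arrays, so no statement about a change in this class can be made. Of the epithelial markers, the basal keratinocyte genes Krt14 and Trp63 were also below both floors, whereas Krt5 read 112 and 45.8 and was at least 1.52-fold lower.

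The lowest ratios belonged to collagens outside the 5 classes. Col7a1, which forms the anchoring fibrils beneath epithelia, had signals of 302 and 168 and was 1.80-fold lower. Col15a1, a collagen of the basement membrane zone of muscle, fat and vessels, read 543 and 335 and was 1.62-fold lower. Col8a1, a short-chain collagen made by vascular and other mesenchymal cells, read 1218 and 807 and was 1.51-fold lower. All 3 probe sets of Col8a1 had log2 ratios between -0.79 and -0.57. In contrast, Col18a1, the parent of endostatin, read 736 and 691 on its brighter probe set and 529 and 670 on the other, log2 ratios of -0.09 and 0.34. The other chain of type VIII, Col8a2, had signals of 82.1 and 17.6 and was at least 1.11-fold lower.

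Among all genes with a fold, 6.5% had a lower ratio than Col7a1, 9.88% a lower one than Col15a1 and 13.7% a lower one than Col8a1. These 3 genes passed 2-fold downwards when the arrays were scaled on the spike-ins, which is 12% of the 25 measured collagen genes, beside 15.8% of all measured genes under that scaling. The median over the 4 of these other collagens with a fold was -0.65, which lay 0.78 below that of the fibrillar genes. The fibrillar median lay 0.26 above that of the basement membrane genes, 0.30 above the microfibrillar and 0.35 above the fibril-associated genes. Scaling with 1 factor per array cannot move these differences, but other choices did. The difference from the fibril-associated genes was 0.03 without a floor and -0.02 with the floors added as a pseudocount. The difference from the basement membrane genes was 0.11 under quantile normalization and 0.44 when Col7a1, Col15a1 and Col18a1 were counted with that class. The difference from the other collagens lay between 0.62 and 0.78 under all settings tried. None of them was tested, since the members of a class are not replicates of a condition.

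Summed signals for markers of several cell types that can hold these collagens were lower in the MSU pool. Over all measured genes, 4.28% were at least 2-fold lower as deposited and 15.8% with scaling on the spike-ins, and the counts below are as deposited. The summed signal of the adipocyte markers was 12999 (control) and 3517 (MSU), and 5 of 6 measured markers were at least 2-fold lower, among them adiponectin (Adipoq) at 7.36-fold and Fabp4 at 3.97-fold. For smooth muscle and pericytes the sums were 6965 and 3262, with 2 of 6 measured markers at least 2-fold lower, namely Tagln at 5.53-fold and Acta2 at 2.15-fold. Skeletal muscle markers summed to 38659 and 25738, and 4 of 11 were at least 2-fold lower. Of the 11, 9 had a log2 ratio below 0. The brightest, Acta1, was 1.15-fold higher and Ttn 1.08-fold higher, both below 0 with scaling on the spike-ins. Epithelial markers summed to 1972 and 649, and 4 of 7 measured were at least 2-fold lower. The part of these tissues in the ratios of Col7a1, Col8a1 and Col15a1 was not tested.

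Markers of fibroblasts and endothelium moved less. All 13 fibroblast markers were measured, with sums of 45057 and 42602 and a median log2 ratio of -0.18. Of these, 9 lay below 0 and 4 above. Decorin (Dcn), a proteoglycan that binds collagen fibrils, was 1.17-fold higher and vimentin (Vim) 1.11-fold higher (both below 0 with scaling on the spike-ins). In contrast, the microfibril protein Mfap5 was 2.11-fold lower, the only member past 2-fold, and Fap was 1.65-fold lower. Endothelial markers summed to 2366 and 1960, with a median of -0.13 over 8 genes. Of the 3 Schwann cell markers measured, Mbp was 1.08-fold higher, Pmp22 1.09-fold lower and Sox10, at 149 and 242, 1.62-fold higher. Resident macrophage markers had a median of 0.03 over 10 genes, but moved in both directions, with 5 above 0 and 5 below as deposited. They ran from Folr2, 2.05-fold lower, to Cd163, 1.94-fold higher. Neutrophil markers had a median of 2.56 over 6 genes. The sums for neutrophil markers were 2254 and 19815, while the summed signal of the 42 collagen genes was 1.06 times as high in the MSU pool as deposited and 0.77 times with scaling on the spike-ins. That sum is carried by the brightest genes, and the collagen median lay below 0.

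**Figure D3:**
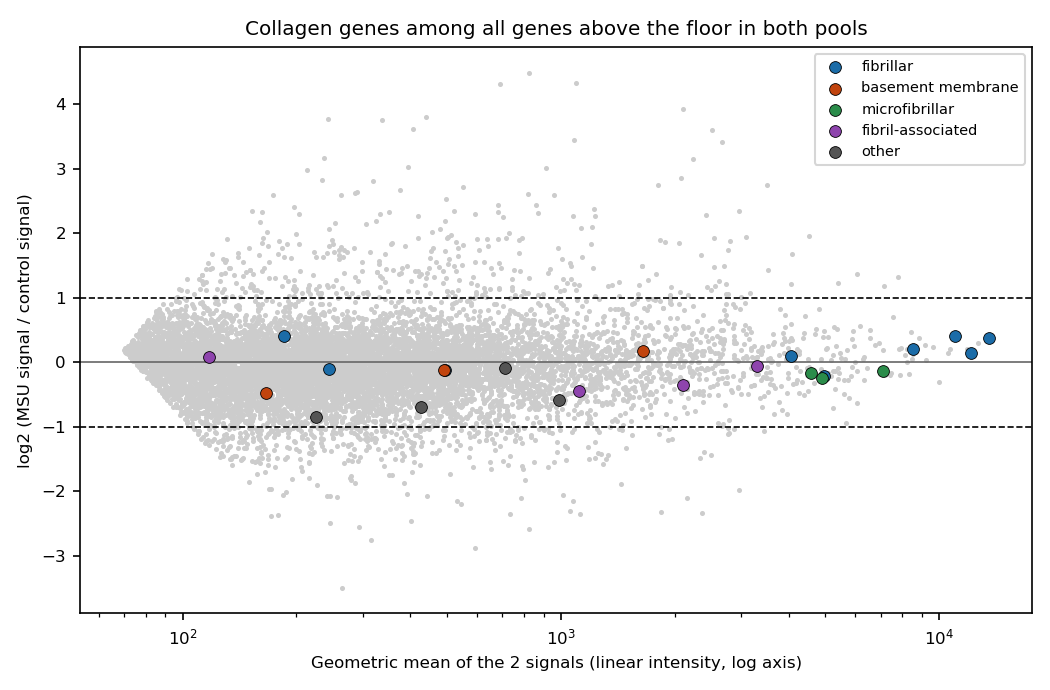
Log2 of MSU over control signal (y axis) against the geometric mean of both signals (x axis, log axis) for all genes above the floor in both pools (grey), with the 23 collagen genes coloured by class. The 3 brightest collagen genes lie above 0 as deposited (below 0 with scaling on the spike-ins). The lowest ratios, those of Col7a1 and Col15a1, belong to dimmer genes, as does the highest, that of Col24a1.

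Signal and ratio were weakly related across the collagen genes, and the highest ratio belonged to a dim gene, Col24a1. Across the 23 collagen genes, mean log2 signal and log2 ratio had a Spearman's rho of 0.35 and a Pearson's r of 0.40, beside 0.01 and 0.05 across all 10046 genes. Genes are not independent replicates, and all points share the same 2 arrays. Among the 115 genes with a mean signal of 4096 or more, the median log2 ratio was 0.06, and that of the 8 collagen genes in that range was -0.00, with 4 below the median of the range. Between 256 and 1024 the medians were -0.07 over all 4093 genes and -0.13 over 5 collagen genes, all 5 of which lay below the median of the range. Between 1024 and 4096 they were 0.03 over 886 genes and -0.06 over 5 collagen genes. Below 256 they were -0.05 over 4952 genes and -0.11 over 5 collagen genes, whose log2 ratios ran from -0.85 to 0.41. Of 12 collagen genes with several probe sets above the floor, the brightest probe set had a higher ratio than the dimmest in 8, and in 5 the probe sets differed in sign. Between probe sets of the same gene, the SD had a median of 0.18 over these 12 genes and 0.22 over 4004 genes. Differences between mice are not part of it.

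Genes that build, process, bind or degrade collagen showed larger ratios than the collagens themselves, in a few members. Of 47 such genes on the array, 41 were measured, and 5 of them passed 2-fold upwards and 0 downwards, beside 3.7% and 4.28% of all measured genes. The 5 were the neutrophil collagenase Mmp8, the gelatinase Mmp9, the cross-linking enzyme Loxl4, the prolyl 3-hydroxylase P3h2 and the integrin chain Itga1. P3h2 and Itga1 lay at the threshold and lost the call under median scaling, quantile normalization and a stricter floor. Mmp8 and Mmp9 kept it under each scaling and floor tried, and Mmp9 also under each probe set rule. Mmp8 has 1 probe set, so no probe set rule could change its call. Under the stricter floor its log2 ratio became a bound of 2.38. The median log2 ratio over the 36 with a fold was 0.00.

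Enzymes and chaperones of the endoplasmic reticulum were measured for 18 of 19 genes, with a median log2 ratio of 0.00 and a range from -0.96 to 0.62. P4ha1, a catalytic subunit of the prolyl 4-hydroxylase that stabilizes the triple helix, read 1203 and 1849, a 1.54-fold higher signal with MSU. Its other subunit P4hb read 6251 and 7678, or 1.23-fold higher, and the collagen chaperone Serpinh1 (HSP47) 5980 and 6012. Tmem38b, a channel of the endoplasmic reticulum, was 1.42-fold higher. Cyclophilin B (Ppib), a prolyl isomerase, had signals of 3743 and 1928 and was 1.94-fold lower, and the related folding enzyme Fkbp14 read 777 and 518. Chosen after their values were seen, all 3 lysyl hydroxylases had a log2 ratio above 0, at 0.17 for Plod1, 0.50 for Plod2 and 0.48 for Plod3, of which Plod1 turned below 0 with scaling on the spike-ins. In contrast, Crtap and P3h1, which form the prolyl 3-hydroxylation complex with Ppib, had log2 ratios of -0.41 and -0.13. P3h2 lay below the floor in the control pool, with signals of 60.9 and 130, and was at least 2.02-fold higher.

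Propeptides are cut from procollagen after secretion, and the fibrils are then cross-linked. Bmp1, the C-propeptidase, read 1495 and 1613 and was 1.08-fold higher, and its enhancer Pcolce read 5586 and 5232. Pcolce2 was 1.49-fold lower, and Mep1a read 80.1 and 89.2 near the floor. Of the cross-linking enzymes, Lox read 3194 and 3329, Loxl1 3676 and 2873 and Loxl3 800 and 818. Their log2 ratios on these brightest probe sets ran from -0.36 to 0.06, whereas the dimmer probe set of Loxl1 gave -1.54. Loxl4 had signals of 123 and 294, which is 2.39-fold higher, although its second probe set read 86.0 and 123, or 1.43-fold higher. The call was lost with the median over probe sets, the dimmer probe set, the pseudocount and scaling on the spike-ins.

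Among collagen receptors, the integrin chain Itga1 read 68.0 and 137, or 2.01-fold higher, from a control signal just above the floor. Its partner Itgb1 read 2139 and 2058, and the discoidin domain receptor Ddr2 1104 and 1063. Ddr1 was 1.33-fold lower, and Mrc2, which takes up collagen fragments, read 916 and 513 and was 1.79-fold lower. Of the degrading enzymes, Mmp8 read 75.8 and 599, a 7.91-fold higher signal with MSU, from a control signal near the floor. Mmp9 read 257 and 789 and was 3.07-fold higher, and the collagenase Mmp13 read 335 and 603 and was 1.80-fold higher. Mmp8 and Mmp9 are stored in neutrophil granules. Among the 7 measured neutrophil markers, 5 passed 2-fold upwards. The others were Mpo, at 74.2 and 75.4, and Ltf, at 234 and 161, which was 1.45-fold lower. Camp was below both floors. The part of neutrophils in the ratios of Mmp8 and Mmp9 was not tested. Mmp2 read 4784 and 4955, Mmp14, a membrane collagenase that activates it, read 2844 and 2377, and cathepsin K (Ctsk) was 1.37-fold lower.

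**Figure D4:**
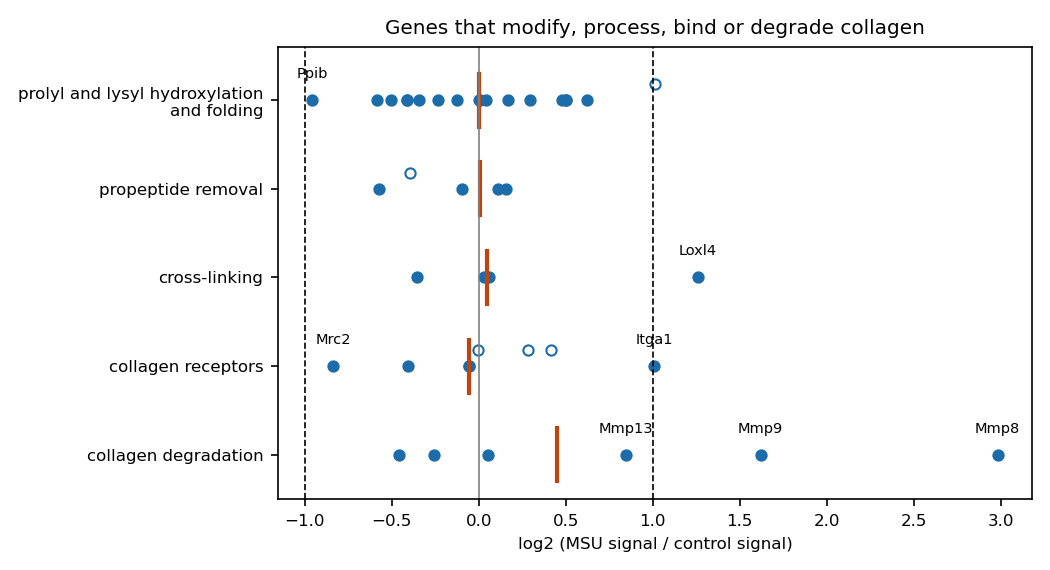
Log2 ratio of MSU to control signal (x axis) of the measured genes of 5 lists of the collagen pathway (y axis), with folds as filled and bounds as open points. Red bars mark the median fold of a list and dashed lines 2-fold, and Mmp8, Mmp9 and Loxl4 lie farthest to the right.

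The upstream sequences of the measured collagen genes were compared with those of all measured genes, a gene counting when any of its promoters held the motif. Upstream sequence was given for 20 of the 25 measured genes. Of these 20, 13 (65%) held GGGCGG on either strand within 250 bases, beside 63.2% of 8998 measured genes, and 10 (50%) held CCAAT, beside 39.6%. TATAAA was found in Col3a1 alone, beside 8.41% of measured genes, and TGANTCA in Col6a1 alone, beside 5.86%. The Col3a1 match starts at -117 from the start of transcription, and matches were counted at any position within the 250 bases. The median GC content was 61.4% for the collagen genes and 60% for all measured genes. Over all 32851 annotated promoters, taken singly, the shares were 32.7% for GGGCGG, 33.8% for CCAAT, 12.4% for TATAAA and 6.75% for TGANTCA. In the sequences printed above, Col1a2 holds CCAAT and 2 copies of GGGCGG, Col8a1 holds 4 copies of GGGCGG on the opposite strand, and Col15a1 holds none of the 4 motifs. Genes with the same motif did not share a ratio, since GGGCGG was found upstream of Col5a3 at a log2 ratio of 0.10 and of Col7a1 at -0.85. A match of letters is a description and does not show a binding site.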

How the data were processed

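The deposited values are linear signal intensities from Affymetrix Mo430_2 arrays, which the authors produced with GCOS. The submitters' processing notes name MAS5 with no version. Both columns were used unchanged. Their means after trimming 2% of probe sets at each end were equal (150.0), as scaling to a common target would set them. That equality does not show that the arrays are comparable, and the spike-ins differed between them (median ratio 1.37). Of 45101 probe sets, 34958 are assigned to 1 gene by the platform annotation, 932 to several and 9211 are unlisted, and 64 are array controls. Probe sets shared by several genes were left out. No symbol differed from that in RefSeq where the gene identifier was found there, and other symbols were kept as annotated.

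Each array's floor is the signal at the rank given by the number of probe sets called detected in the published account of that array, which takes no account of probe-level background. A bound was given only where the brighter signal exceeded the floor of the other array. Folds were counted at a fixed size of 2-fold. The members, classes and lists, and the rule for naming genes (every measured collagen; in each pathway list the 4 largest ratios and 2 brightest members, in each marker list 2 of each), were chosen with earlier results of these data known. Not all genes of the rule are named for marker lists, and some were named after their values were seen. No p-value was computed, since each condition has 1 array, and the number of arrays limits the precision. The published methods and the sample records differ on the volume of air and the day of injection, and the records are followed. The computation was tested on simulated data. Python 3.11.15, pandas 2.3.3, numpy 2.4.6 and scipy 1.17.1 were used.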

Additional observations from a re-analysis of the deposited data

How the results depend on the processing

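The main limits are 1 array of pooled RNA per condition, the scaling of the arrays, and a floor that leaves 17 of the 42 collagen genes without a ratio. The 18 control RNAs added at hybridization (spike-ins) all gave higher signals in the MSU pool, with a median ratio of 1.37. Scaling on them lowers each log2 ratio by 0.46, so that the median of all genes became -0.51, and 8 collagen genes turned below 0. The medians became -0.57 for all collagens, -0.32 for fibrillar, -0.58 for basement membrane, -0.62 for microfibrillar, -0.67 for fibril-associated and -1.10 for the other collagens. Collagen genes at least 2-fold lower then numbered 3 in place of 0 (15.8% of all measured genes passed), and pathway genes 2 higher and 4 lower in place of 5 and 0. The split over all genes moved to 200 higher and 1787 lower, from 413 and 478.

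Without a floor, 2 collagen genes were at least 2-fold higher and 5 lower, all from signals below the floor on at least 1 array, which is 4.76% and 11.9% of 42 beside 8.92% and 9.48% of all genes. The fibril-associated median was 0.0745 without a floor and 0.12 with the floors added as a pseudocount, over all 9 members. Pathway genes at least 2-fold higher numbered 3 under median scaling, quantile normalization and a stricter floor (P3h2 and Itga1 lost), and 2 with the pseudocount and at 3-fold (Mmp8 and Mmp9 left). Those lower numbered 1 under median scaling and quantile normalization (Ppib). They also numbered 1 under each alternative added after seeing the data, centring on genes of like signal (Ppib) and the dimmest probe set of a gene (Loxl1). The dimmest probe set turned 5 collagen genes in direction. Of 116 alternative values for class medians and counts, 94 stayed within 0.22 on the log2 scale (the median SD between probe sets of a gene) or within 1.5 times the count. Some of these could not move. Widening the basement membrane class leaves the fibrillar median as it was, and a count of 0 at 2-fold is also 0 at 3-fold. The window of 0.22 exceeds the fibrillar median of 0.14, so its fall to 0 under quantile normalization counted as staying. The tally is therefore no measure of stability. No paired analysis was possible because each condition had 1 array.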
